A study of Homo sapiens with 6 samples.

Results

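The genes described here, 6 in number, belong to the cell's response to double-stranded RNA (dsRNA): the oligoadenylate synthetases OAS1, OAS2 and OAS3, the related OASL, the kinase gene EIF2AK2 (its protein is known as PKR) and the RNA-editing enzyme gene ADAR. They were taken by name from the 15284 genes with counts for all libraries, and the set was chosen by the measured differences between MUC3A guide and control libraries, which were known when it was drawn up. Those differences are therefore given as descriptions. Calls from the fit over all genes are printed for the members with the share of all genes called, and nothing is read from them. Poly(A) RNA was sequenced from HCT116, an established human colorectal carcinoma cell line. The study asked about MUC3A, a gene for a mucin anchored in the membrane of intestinal epithelial cells. KO1 and KO2 cells received lentiCRISPR v2 virus, which carries Cas9, a guide RNA and a puromycin resistance gene, with a different MUC3A guide in each. Infection was at a multiplicity of 10, and puromycin selection at 2 µg/mL ran for 72 h. The control cells, WT, have the genotype label wild type and the treatment label negative control. A scrambled virus is part of the protocol too, and the labels do not settle if the WT cells had received it. Each group has 2 libraries, one with the name prefix HCT and one with HCT116. What the prefix stands for is not explained in the labels, nor is it said whether the lines are single clones or whether a group's libraries are separate cultures. The p-values below thus cover the spread among these libraries alone, and that spread may be technical.

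OAS enzymes bind dsRNA and join ATP into short oligoadenylates, a second messenger that leads to the breakdown of RNA in the cell. OASL has lost that catalytic activity and is known for enhancing signalling by the RNA sensor RIG-I. PKR is a kinase that dsRNA activates, and it phosphorylates the translation factor eIF2α, which slows protein synthesis. ADAR changes adenosine to inosine within dsRNA, which makes a cell's own duplexes less visible to RNA sensors. Interferons raise the transcription of these genes through the factor ISGF3, which binds an element built from repeated GAAA blocks.

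Promoters are shown because the members that were higher in KO2 are known as interferon-stimulated genes and their GAAA blocks can be read directly. RefSeq windows (GRCh38.p14, 250 bases before to 50 bases after a transcript start) matched 4 of the 6 members, OAS1, OAS3, EIF2AK2 and ADAR. The windows were searched on both strands for 2 copies of GAAA parted by 2 bases, GAAANNGAAA, and by 1 base, GAAANGAAA. The second spacing was added after the sequences had been read. Capitals mark the matches, and each stretch reads 5′ to 3′ on the strand of its gene.
OAS1, chr12:112906915-112906961, plus strand: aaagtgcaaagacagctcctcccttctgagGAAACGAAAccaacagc
OAS3, chr12:112938296-112938473, plus strand: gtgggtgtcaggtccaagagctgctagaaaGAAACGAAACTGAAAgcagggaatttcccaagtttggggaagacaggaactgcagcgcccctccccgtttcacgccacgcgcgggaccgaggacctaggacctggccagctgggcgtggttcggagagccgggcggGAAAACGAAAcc
EIF2AK2, chr2:37156977-37157016, minus strand: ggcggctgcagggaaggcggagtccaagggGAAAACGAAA

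OAS1 holds 1 match, GAAACGAAA, from 17 to 9 bases before its start. OAS3 holds 3 matches. The upstream pair, GAAACGAAA and GAAACTGAAA, overlap between 148 and 134 bases before the start, and GAAAACGAAA lies 12 to 3 bases before it. EIF2AK2 holds 1 match, GAAAACGAAA, which spans its start, from 6 bases before it to base 4 after it. The 3 windows of ADAR hold 0 matches, which says only that these letters are not in those windows. Of all 35116 windows, 3.57% hold GAAANNGAAA, 3.12% hold GAAANGAAA and 6.40% hold either. A match is a description of the sequence and does not show that a factor binds there.

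Total counts per library ran from 13638724 to 17830282, at which 3 counts correspond to 0.168 to 0.220 CPM (the count scaled by library size) in a library. MUC3A stood at 52.7 CPM (HCT) and 25.1 CPM (HCT116) in WT, 52.9 and 28.6 CPM in KO1 and 30.0 and 24.6 CPM in KO2. A gene-level count does not show whether the guides disrupted the coding sequence. Epithelial markers fixed for the labelled cell type, 7 of 9 with counts, summed to 6350 and 8373 CPM in WT, 8746 and 15044 CPM in KO1 and 5271 and 9239 CPM in KO2. Of the 6 tested, edgeR called 0 in KO1 against WT (4 unadjusted, 3 by DESeq2, 0 by limma-voom) and 0 in KO2 against WT (0 unadjusted and 0 by both other tools). Against KO1, 4 (KRT8, KRT18, KRT19 and CDH1) were called lower in KO2, as were 683 of all 12678 genes tested. The median log2 fold change over the 6 was -0.57 there. Summed leukocyte markers were 10.3 and 10.7 CPM in WT, 22.4 and 21.6 CPM in KO1 and 7.01 and 14.5 CPM in KO2, most of it CD68, with the pan-leukocyte gene PTPRC at 0 or 1 read in every library. Of the 3 tested, edgeR called 0 in KO1 against WT (2 unadjusted, 1 by DESeq2, 0 by limma-voom). All 3 were positive there, with a median log2 fold change of 1.21. In KO2 against WT 0 were called (0 unadjusted and 0 by both other tools). CD68 was called lower in KO2 than in KO1 (edgeR adjusted p = 0.0248). Fibroblast markers summed to 65.9 and 42.9 CPM in WT, 64.3 and 35.4 CPM in KO1 and 67.5 and 55.8 CPM in KO2. Of the 2 tested, 0 were called in KO1 or in KO2 against WT (1 unadjusted in each, 0 by both other tools). The median log2 fold change of these 2 genes was 0.83 in KO1, where only 1 was positive, and 0.98 in KO2, where 2 were. Markers of the kidney-derived packaging line that made the virus summed to 21.0 and 31.5 CPM in WT, 16.7 and 27.9 CPM in KO1 and 29.7 and 36.7 CPM in KO2. Of the 2 tested, 0 were called in either guide against WT, and 1 was called higher in KO2 than in KO1, where 4.24% of all genes were. The part of these markers in the results was not tested.

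In control HCT116 cells the members ranged from well expressed to almost silent, by level per kilobase (kb) of exon. ADAR had the highest level, 33.8 ± 3.68 CPM per kb (SD, n = 2), above that of 89.1% of the 12663 tested genes with a known exon length. OAS3, at 7.11 ± 0.247 CPM per kb, and EIF2AK2, at 6.95 ± 1.35 CPM per kb (SD, n = 2), lay near the middle of all genes and differed from each other by less than their spread. OASL stood lower, at 1.20 ± 0.183 CPM per kb (SD, n = 2). OAS1 was almost silent, with 0.0885 ± 0.0322 CPM per kb (SD, n = 2), above 1.22% of tested genes. OAS2 was lowest, at 0.0178 ± 0.0104 CPM per kb (SD, n = 2). Among the catalytic synthetases of these control cells, OAS3 RNA was thus far more abundant than OAS1 or OAS2 RNA. In KO2 the order of the members' mean levels per kb was the same, and in KO1 EIF2AK2 (7.31 ± 0.458 CPM per kb) stood above OAS3 (6.58 ± 1.32 CPM per kb), again by less than their spread.

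**Figure D1:**
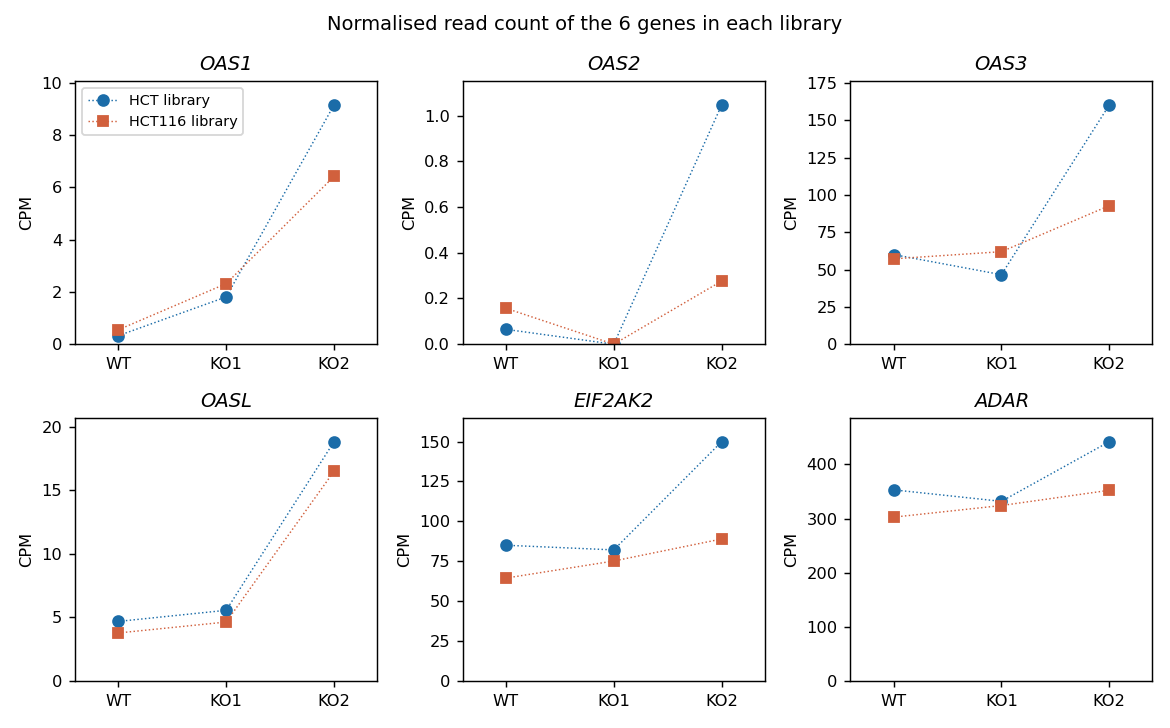
Level of each member in each of the 6 libraries, as CPM on a linear axis that starts at 0 and differs between panels; points are libraries and dotted lines join the libraries of 1 prefix. OAS1, OAS3, OASL and EIF2AK2 are higher in both KO2 libraries than in both WT libraries, while the HCT116 library of KO2 (352 CPM) lies beside the HCT library of WT (353 CPM) for ADAR, and OAS2 sits at 0 in KO1.

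OAS1 makes the smallest of the active OAS enzymes. It had 5 reads (0.325 CPM) in the HCT library and 7 reads (0.551 CPM) in the HCT116 library of WT. It had 27 reads (1.81 CPM) and 30 reads (2.32 CPM) in KO1, and 175 reads (9.16 CPM) and 93 reads (6.43 CPM) in KO2. The 3 groups did not overlap: both KO1 libraries were above both WT libraries, and both KO2 libraries were above all others. In the edgeR fit the log2 fold change was 4.16 ± 0.44 (SE) in KO2 against WT, a fold of 17.9, and 2.24 ± 0.51 in KO1 against WT, a fold of 4.72. Among all 12678 genes tested, the KO2 value ranked 6 and the KO1 value 25 from the top. OAS1 was higher in KO2 than in KO1 by 1.92 ± 0.35. The control level rests on 12 reads in all. The ratio of pooled reads was 18.7 (95% exact interval 10.5 to 36.6) for KO2 over WT and 4.79 (2.54 to 9.80) for KO1 over WT. These intervals cover counting error only.

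OAS2 makes a larger enzyme with 2 OAS units. It had 1 and 2 reads in the HCT and HCT116 libraries of WT, 0 and 0 reads in KO1, and 20 reads (1.05 CPM) and 4 reads (0.276 CPM) in KO2. Both KO2 libraries lay above the other 4, but the HCT116 library of KO2 was only just above them, and 20 of the 24 KO2 reads came from the HCT library. OAS2 was below the low-count filter and was not tested. Pooled, KO2 held 24 reads against 3 in WT, a ratio of 6.69 (95% exact interval 2.03 to 34.7, counting error only). With KO1 set to a floor of 3 counts for its libraries together, the ratio of KO2 to KO1 was 6.64. With the counting error of both groups, the 95% exact lower limit of the ratio of KO2 to KO1 was 4.99. No fold is given for KO1 against WT, since both groups are at or under that floor.

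OAS3 makes the largest OAS enzyme, the one with the highest affinity for long dsRNA. Its level was 60.1 CPM (HCT) and 57.2 CPM (HCT116) in WT, 46.6 and 62.0 CPM in KO1, and 160.3 and 92.8 CPM in KO2. Both KO2 libraries lay above the other 4, and the KO1 libraries lay on either side of the WT pair. The log2 fold change was 1.09 ± 0.22 (SE) in KO2 against WT, a fold of 2.13, and -0.10 ± 0.22 in KO1 against WT. KO2 was above KO1 by 1.19 ± 0.22. The HCT library of KO2 weighed heavily on the size: without it the KO2 value was 0.57, and with the HCT116 one left out instead it was 1.53.

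OASL, the catalytically inactive relative, stood at 4.69 CPM (HCT) and 3.78 CPM (HCT116) in WT, 5.56 and 4.64 CPM in KO1, and 18.8 and 16.5 CPM in KO2. KO2 stood clear of both other groups, and KO1 overlapped WT. The log2 fold change was 2.06 ± 0.22 (SE) in KO2 against WT, a fold of 4.18 and rank 50 of all genes tested. In KO1 against WT it was 0.27 ± 0.24. KO2 was above KO1 by 1.79 ± 0.22. Of the tested members OASL varied least with the library left out, from 2.02 to 2.11 in KO2 against WT.

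EIF2AK2, the gene for the kinase PKR, stood at 85.0 CPM (HCT) and 64.4 CPM (HCT116) in WT, 82.1 and 75.1 CPM in KO1, and 149.9 and 88.9 CPM in KO2. The HCT116 library of KO2 was only slightly above the HCT library of WT, and the groups WT and KO1 overlapped. The log2 fold change was 0.65 ± 0.15 (SE) in KO2 against WT, a fold of 1.57, and 0.09 ± 0.15 in KO1 against WT. KO2 was above KO1 by 0.56 ± 0.15. Without the HCT library of KO2 the value against WT was 0.39, and EIF2AK2 was no longer called when either WT library was left out (0.63 without HCT, 0.68 without HCT116).

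ADAR makes a short nuclear form and a longer, interferon-induced form from different promoters, and a gene-level count does not separate them. Its level was 353 CPM (HCT) and 303 CPM (HCT116) in WT, 332 and 324 CPM in KO1, and 442 and 352 CPM in KO2. KO2 overlapped WT, although each KO2 library was above the WT library of its own prefix. The log2 fold change was 0.27 ± 0.13 (SE) in KO2 against WT and 0.01 ± 0.13 in KO1 against WT. KO2 was above KO1 by 0.27 ± 0.13. ADAR was the only tested member not called in KO2 against WT.

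With the prefix as a block and an adjusted p under 0.05 over all 12678 genes (edgeR's quasi-likelihood test), 4 of 5 tested members, OAS1, OAS3, OASL and EIF2AK2, were called higher in KO2 against WT, where 2.15% of all genes were (4.61% in either direction). The members were chosen with this contrast in view, so nothing is read from the count. Fitted by group means alone, edgeR called 0 members and 0 genes, with 3 members at an unadjusted p under 0.05. In the authors' deposited table OAS1 alone of the 6 has an adjusted p under 0.05 in KO2, and its log2 fold changes there are 4.12 for OAS1, 2.56 for OAS2, 1.06 for OAS3, 2.02 for OASL, 0.63 for EIF2AK2 and 0.23 for ADAR. In KO1 against WT 0 of 5 members were called by edgeR, against 1.03% of all genes (0.678% higher, 0.347% lower), with 1 (OAS1) at an unadjusted p under 0.05. DESeq2 called OAS1 there and limma-voom called 0 members, and edgeR called OAS1 when either KO2 library was left out. Against KO1 the same 4 members were called higher in KO2, where 4.24% of all genes were (9.62% in either direction). Without the HCT library of KO1 that count was 1, OASL. In the comparison of KO2 against KO1, 4 of 6 epithelial markers were called lower, as were 683 of all 12678 genes. The median log2 fold change over the 5 tested members was 1.09 in KO2 against WT and 0.09 in KO1 against WT, and over all genes it was -0.00 and 0.00. OAS2 is in neither median. Both comparisons share the WT libraries.

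Libraries were also compared by separation, which needs no model but compares across prefixes and so ignores the pairing. Of all tested genes 63.9% were called between prefixes, and a difference between prefixes makes separation harder. The members were chosen with the guide contrasts known, so nothing is read from these counts. By this measure 5 of 6 members had both KO2 libraries above both WT libraries, all but ADAR, where 11.9% of tested genes did. All 6 had both KO2 libraries above both KO1 libraries, where 13.3% of tested genes did. OAS1 alone had both KO1 libraries above both WT libraries, where 6.86% did. OAS2 had both KO1 libraries below both WT libraries, at 0 reads against 1 and 2, where 5.71% of tested genes were lower. That separation rests on 3 reads. OAS2 is counted among the 6 members here but was not tested, so it is not among the genes of these shares. In bulk RNA, fewer cells with a transcript and less of it per cell cannot be told apart, so the KO2 values may come from all cells or from some of them.

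Within a prefix, the KO2 to WT ratio could be read from a single pair of libraries, with a 95% exact interval for counting error. For OAS1 it was 28.1 (11.8 to 87.8) in the HCT pair and 11.7 (5.44 to 29.8) in the HCT116 pair. OAS2 gave 16.1 (2.57 to 667) and 1.76 (0.252 to 19.4), so the HCT116 pair alone does not separate from 1. The ratio for OAS3 was 2.67 (2.48 to 2.87) and 1.62 (1.48 to 1.78). These values show a KO2 level above WT in both pairs for all 3 synthetases, although for OAS2 in 1 pair only beyond counting error. OASL gave 4.02 (3.11 to 5.25) and 4.37 (3.20 to 6.10). EIF2AK2 gave 1.76 (1.65 to 1.88) and 1.38 (1.26 to 1.51). ADAR gave 1.25 (1.21 to 1.30) and 1.16 (1.12 to 1.21). The ratio was larger in the HCT pair for 5 of 6 members, with OASL the exception. The share of all tested genes with a larger ratio in the HCT pair was not computed, so nothing is read from that count. With 1 library per group and prefix, the difference between the pairs could not be tested.

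**Figure D2:**
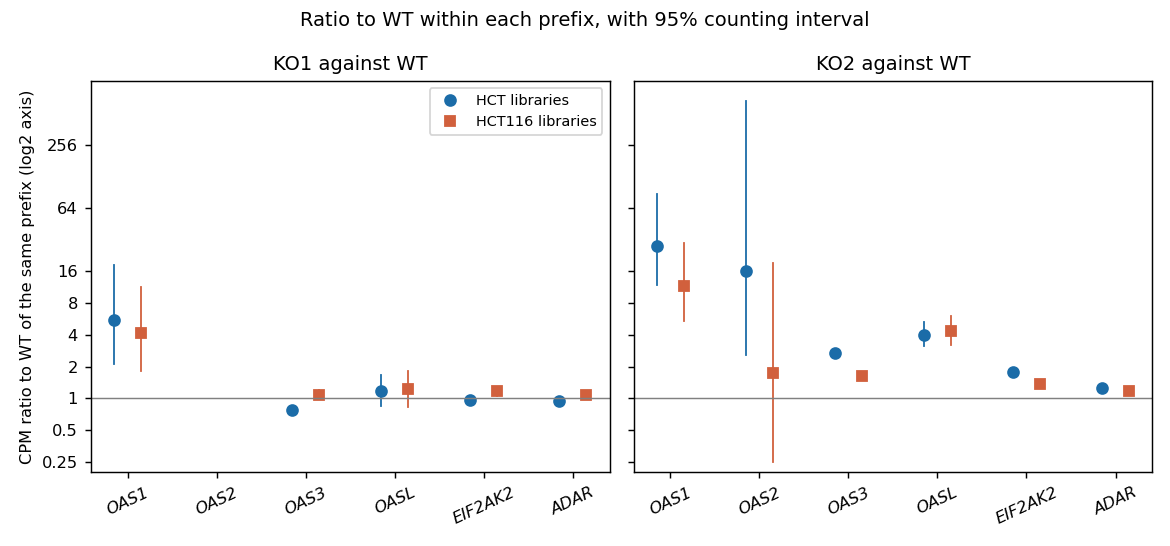
Ratio of CPM to the WT library of the same prefix, for KO1 and KO2, on a log2-spaced axis; points are single library pairs and bars are 95% exact counting intervals. KO2 ratios lie above 1 in both pairs for all 6 members, from 1.16 for ADAR to 28.1 for OAS1, while among KO1 ratios only those of OAS1 (5.56 and 4.21) have intervals above 1 in both pairs; OAS2 has no KO1 ratio, with 0 reads there.

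KO1 ratios to WT were smaller. OAS1 gave 5.56 (2.11 to 18.5) in the HCT pair and 4.21 (1.81 to 11.4) in the HCT116 pair. OASL gave 1.19 (0.855 to 1.65) and 1.23 (0.826 to 1.83), with both intervals spanning 1. For OAS3 the pairs pointed opposite ways, 0.775 (0.702 to 0.856) and 1.08 (0.979 to 1.20). EIF2AK2 gave 0.966 (0.893 to 1.04) and 1.17 (1.06 to 1.28), and ADAR gave 0.940 (0.904 to 0.977) and 1.07 (1.02 to 1.12). Among the members, OAS1 was thus the one with a KO1 level above WT beyond counting error in both pairs.

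The difference between prefixes was not used to choose the members and was tested, with 3 HCT116 libraries against 3 HCT libraries and group as a term. EIF2AK2 was lower in the HCT116 libraries by 1.35-fold (log2 -0.43 ± 0.12, SE; adjusted p = 0.00981, edgeR). The other tested members did not pass: OAS1 at -0.07 ± 0.32 (edgeR adjusted p = 0.854), OAS3 at -0.16 ± 0.18 (0.448), OASL at -0.24 ± 0.18 (0.259) and ADAR at -0.20 ± 0.10 (0.116). Of all tested genes 63.9% were called between prefixes (31.8% higher and 32.1% lower in HCT116), so 1 call among 5 members is below the background share. Leaving out either KO2 library turned the direction for OAS1 (0.46 without HCT, 0.47 without HCT116) and for OAS3 (0.17 and 0.20). For EIF2AK2 it brought the value to -0.26 without HCT and -0.23 without HCT116. EIF2AK2 stood at 149.9 CPM (HCT) and 88.9 CPM (HCT116) in KO2, against 85.0 and 64.4 CPM in WT and 82.1 and 75.1 CPM in KO1. Its prefix value thus rests in part on the KO2 libraries, whose levels were known when the members were chosen.

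The genes that act with the members were counted from lists chosen, like the members, with earlier results of these data known, and all counts are edgeR calls with the block. Nothing is therefore read from the counts of any list, here or for sensing, ligands, receptors and effectors below. Adjusted p-values of genes named from the lists describe the fit over all genes and are not independent tests of those genes. Over all genes, 2.15% were called higher and 2.47% lower in KO2 against WT. In KO1 against WT the shares were 0.678% and 0.347%. Around PKR, 16 genes for eIF2 and eIF2B subunits, other eIF2α kinases, eIF2α phosphatase subunits and PKR regulators were tested. Only part of this list lies downstream of PKR. In KO2 0 of 16 were called (1 at an unadjusted p under 0.05, 0 by DESeq2 and by limma-voom), with a median log2 fold change of 0.02. In KO1 0 of 16 were called (1 unadjusted, 0 by both other tools). Of 6 tested target genes of the stress response that eIF2α phosphorylation starts, 1 rose in KO2, the transcription factor gene ATF3, by 1.73-fold (log2 0.79 ± 0.20, edgeR adjusted p = 0.0472). That call was lost when either WT library or the HCT library of KO1 was left out, and the count was 2 without the HCT116 library of KO1 or with no low-count filter. In KO1 the value for ATF3 was 0.86 ± 0.20 and was not called (edgeR adjusted p = 0.0807). TRIB3, a pseudokinase gene, fell in KO1 by 1.80-fold (log2 -0.85 ± 0.16, edgeR adjusted p = 0.0277), the 1 call among the 6 there by edgeR and by limma-voom, with 2 by DESeq2 and 3 at an unadjusted p under 0.05. Of 12 other dsRNA-binding protein genes, such as DHX9, STAU1 and DICER1, 0 were called in KO2 (2 unadjusted, 0 by DESeq2 and by limma-voom), with a median of 0.05, and 1 was called lower when either KO2 library was left out. In KO1 0 were called by edgeR (0 unadjusted, 0 by both other tools).

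The other arm of dsRNA recognition is sensing that leads to interferon. Of 16 tested genes, 3 rose in KO2 against WT and 0 fell, where 2.15% and 2.47% of all genes did. DESeq2 called 2 of the 16 and limma-voom 3, and edgeR without the block called 0. Since this list too was chosen with results known, nothing is read from its count or adjusted p-values. A positive log2 fold change was seen for 15, with a median of 0.33. IFIH1, which encodes the long-dsRNA sensor MDA5, was at 10.6 and 5.11 CPM in WT, 9.25 and 5.49 CPM in KO1 and 28.0 and 13.4 CPM in KO2. It rose by 2.62-fold (log2 1.39 ± 0.20, edgeR adjusted p = 0.00329). DDX58, the gene for RIG-I, rose by 2.65-fold (1.40 ± 0.21, edgeR adjusted p = 0.00382). DDX60, a helicase gene, rose by 1.94-fold (0.96 ± 0.24, edgeR adjusted p = 0.0452). The count was 7 without the HCT116 library of KO2 and 2 when the HCT library of KO1, or the HCT116 one of WT, was left out. In KO1 0 of 16 were called by edgeR (1 unadjusted, 0 by DESeq2 and by limma-voom).

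Of 13 interferon ligand symbols 5 had counts and 1, IFNE, an interferon of epithelia, passed the filter. IFNE had 7 and 16 reads in WT, 9 and 3 reads in KO1, and 79 and 49 reads in KO2. It rose in KO2 by 4.50-fold (log2 2.17 ± 0.53, edgeR adjusted p = 0.0410), a call that DESeq2 did not make and that was lost without the HCT library of WT or of KO2. The lambda interferon genes IFNL1, IFNL2 and IFNL3 together had 3 reads in WT, none in KO1 and 24 in KO2 (8 in the HCT and 16 in the HCT116 library). IFNL2 and IFNL3 are near-identical copies, so reads cannot be placed between those genes with certainty. IFNK had 1 read in all, in the HCT library of WT. IFNB1 and the IFNA genes were not analysed here.

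Between the interferon receptors and ISGF3, 2 of 14 tested genes rose and 1 fell in KO2 against WT, where 2.15% and 2.47% of all genes did, with a median of 0.30. STAT2, the gene for a subunit of ISGF3, rose by 1.46-fold (log2 0.55 ± 0.13, edgeR adjusted p = 0.0434). SOCS1, a feedback inhibitor of the receptor kinases, rose by 2.33-fold (1.22 ± 0.20, edgeR adjusted p = 0.00635). SOCS3, another inhibitor, fell by 1.91-fold (-0.93 ± 0.19, edgeR adjusted p = 0.0169), a call lost without the HCT library of WT. The count of rises was 1 when any one WT or KO1 library was left out, 4 without the HCT116 library of KO2 and 6 without the HCT one. DESeq2 called 1 rise. Results were also known when this list was chosen, so its counts and adjusted p-values are descriptions. In KO1 0 of 14 were called (0 unadjusted, 0 by DESeq2 and by limma-voom). IRF9 was not analysed here.

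Among other interferon-stimulated effectors, 15 of 33 tested rose in KO2 against WT and 0 fell, where 2.15% and 2.47% of all genes did. DESeq2 called 13 of the 33 and limma-voom 19, and edgeR without the block called 0. The list was chosen with results known, so nothing is read from the count. A positive log2 fold change was seen for 32, and the median was 0.67. IFIT1, whose protein binds foreign RNA ends, rose by 4.01-fold (edgeR adjusted p = 0.000296), IFI6 by 2.96-fold (0.000395), IFIT2 by 6.17-fold (0.000933) and PARP9 by 3.39-fold (0.00105). In KO1 0 of 33 were called by edgeR (2 unadjusted, 0 by DESeq2 and by limma-voom), with a median of -0.01, and IFIT1 was at 0.13 ± 0.21. In the same comparison OAS1 stood at 2.24 ± 0.51, OASL at 0.27 ± 0.24 and OAS3 at -0.10 ± 0.22, and differences between these genes were not tested.

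**Figure D3:**
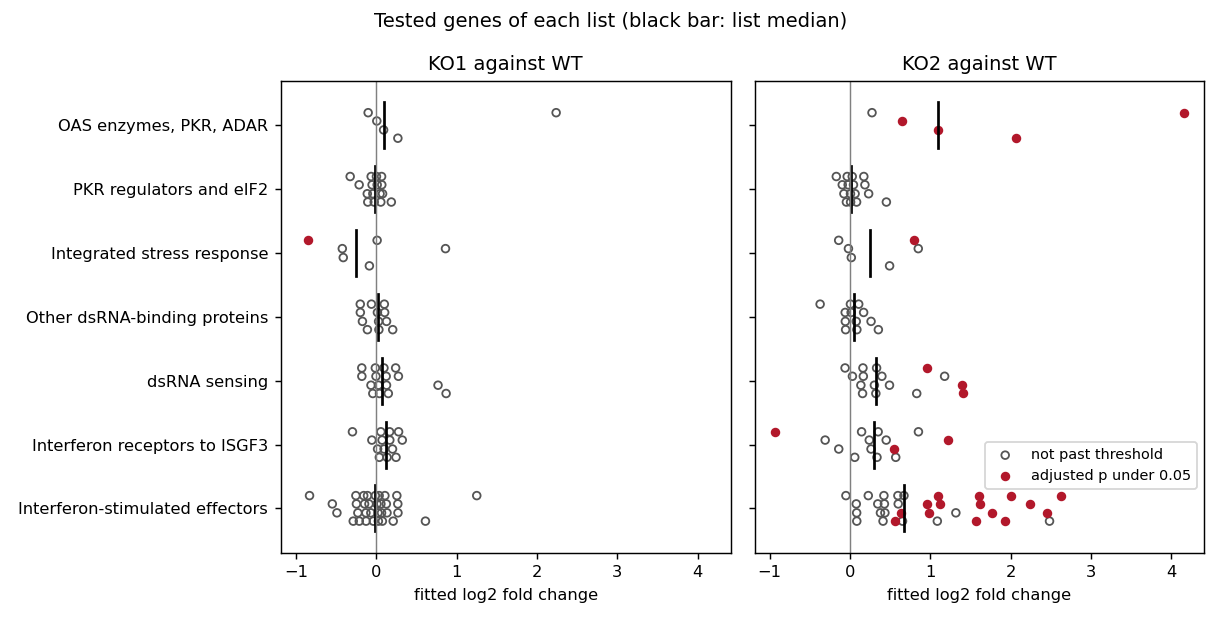
Log2 fold change in KO1 and in KO2 against WT for the tested genes of each list, 1 point per gene, with called genes filled red and a bar at the list's median. In KO2 the medians of the effector (0.67), sensing (0.33) and receptor (0.30) lists lie above those of the PKR and eIF2 (0.02) and other dsRNA-binding (0.05) lists; among the KO1 points, TRIB3 is the one called.

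Genes beside the members on the chromosome were read to see whether whole regions differed. OAS1, OAS3 and OAS2 lie together on chromosome 12. Of the 20 nearest tested genes 0 were called by edgeR in KO2 against WT (3 unadjusted, 0 by DESeq2 and by limma-voom), with a median log2 fold change of -0.05 and values from -0.35 to 0.79, the highest being DTX1 (0.79 ± 0.38). In that contrast 4.61% of all genes were called in either direction. OASL lies elsewhere on chromosome 12, and of its 20 neighbours 1 fell, KDM2B, with a median of 0.03 (3 unadjusted, 1 by DESeq2 and by limma-voom). Values there ran from -1.66 to 0.38. Around EIF2AK2 on chromosome 2, LTBP1 (-1.33 ± 0.20) and CRIM1 fell and 0 rose among 20, with a median of 0.05 (5 unadjusted, 2 by DESeq2 and by limma-voom). The highest neighbour value there, 1.07, was above that of EIF2AK2 itself, 0.65. Around ADAR on chromosome 1, SHC1 rose and 0 fell among 20, with a median of 0.01 (3 unadjusted, 1 by DESeq2 and by limma-voom). The highest neighbour value there, 0.66, was above that of ADAR itself, 0.27. The higher KO2 levels of OAS1 and OAS3 thus stood beside neighbours with a median near 0. In KO1 0 neighbours were called at any of these loci by edgeR, by DESeq2 or by limma-voom, with 0 to 1 per locus at an unadjusted p under 0.05.

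**Figure D4:**
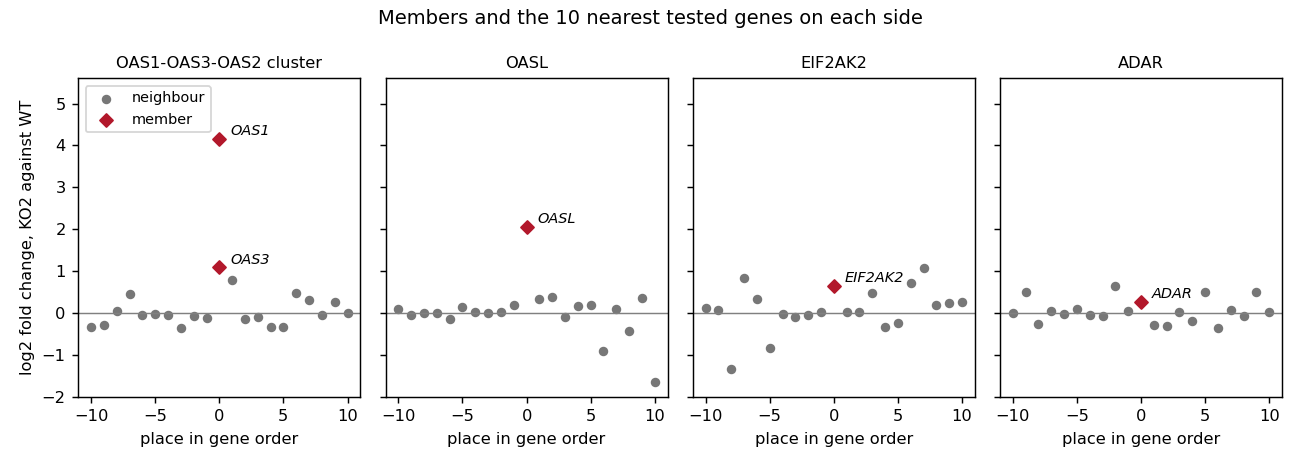
Log2 fold change in KO2 against WT of the members (diamonds, at place 0) and of the 10 nearest tested genes on each side of them, by order along the chromosome. The members OAS1 (4.16), OASL (2.06) and OAS3 (1.09) stand above neighbours whose medians lie between -0.05 and 0.05. EIF2AK2 (0.65) and ADAR (0.27) lie within the range of their neighbours.

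After the mean of each prefix was removed, the members' log2 CPM profiles over the 6 libraries followed their own mean with a Pearson r from 0.875 (OAS2) to 0.976 (EIF2AK2). Each member is part of that mean, so these values are descriptions. Among 1287 candidates, whose mean log2 CPM and whose range in log2 CPM both reached 1, the 10 most like the members' mean profile were GPCPD1 (r = 0.998), MSLNL (0.998), TRIM45 (0.994), PABPC1L (0.992), IFITM1 (0.991), KLK5 (0.989), SCML1 (0.989), SLC16A6 (0.988), BST2 (0.988) and IFIT1 (0.987). In all, 59 genes had an r over 0.95. With 6 libraries and 1 group apart from the rest, any gene that is higher in KO2 and level elsewhere has a high r. GPCPD1 stood at 19.2 and 18.8 CPM in WT, 19.7 and 21.6 CPM in KO1 and 45.2 and 33.4 CPM in KO2, with the larger value in the HCT library as for OAS3 and EIF2AK2. SLC16A6, a monocarboxylate transporter family gene, stood at 5.99 and 7.94 CPM in WT, 7.91 and 12.2 CPM in KO1 and 44.4 and 45.3 CPM in KO2.

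**Figure D5:**
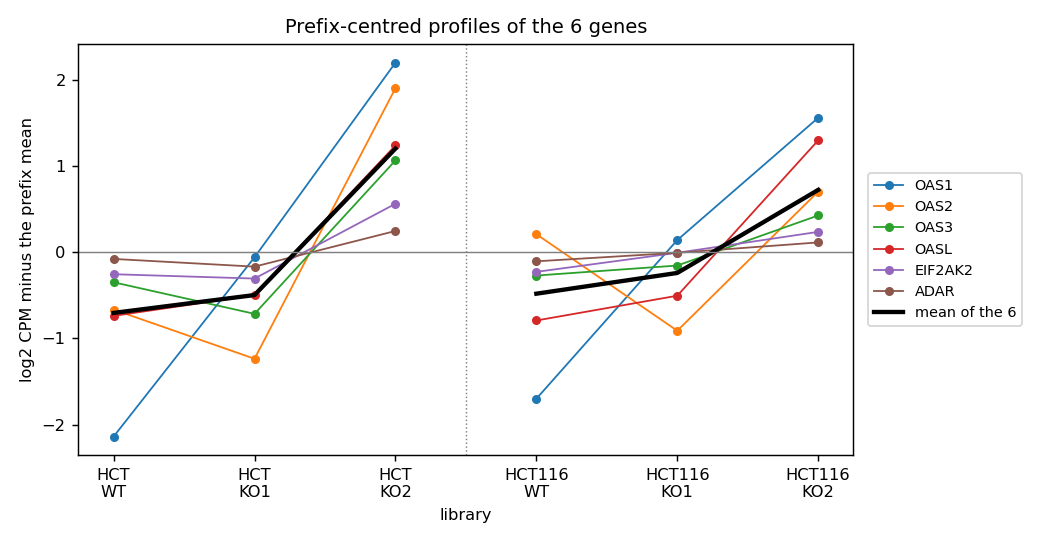
Log2 CPM after subtracting the prefix mean, in each of the 6 libraries, for the 6 members, with their mean in black. All 6 members are highest in KO2 within each prefix, and OAS1 and, by less, OASL are higher in KO1 than in WT within both prefixes.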

How the data were processed

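The members and gene lists were chosen with earlier results of these data known. The authors' deposited tables hold raw read counts by gene symbol, 1 column a library, and per the file headers also the authors' own log2 fold change and adjusted p-value for each guide against WT. Per the submitters' processing notes the build was hg18 and the tools were STAR, HTSeq 0.6.0 and DESeq2, with no role for each. Use of strand in counting is not given in the sources used, so a gene's reads may include those of overlapping or antisense genes. Another 40 per-sample columns were not used.

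The WT counts of both tables were joined on symbol (15284 shared genes; 264 and 429 further genes stand in the KO1 or KO2 table only). Tests used edgeR 4.0.16 in R 4.3.3 (TMM, filterByExpr with a minimum count of 10, glmQLFTest on all 6 libraries, Benjamini-Hochberg at 0.05), which kept 12678 genes, with the name prefix as a block and 2 residual degrees of freedom. Members were to be compared within prefix, and same-prefix libraries deviated together from their group means (r = 0.867, 0.815 and 0.783 across genes for the 3 pairs of groups). Columns carry no replicate number, so the prefix stands for it. The standard error is |log2 fold change| divided by the root of the F statistic, and can understate counting error at few reads. CPM use TMM-scaled library sizes; lengths are GENCODE 29 exon unions, and gene order is from the same annotation on GRCh38. The 2 libraries of a group differed beyond sampling noise (chi-square per degree of freedom 91.5 to 142). Alternatives were group means only, RLE factors, DESeq2 1.42.0, limma 3.58.1 (voom), no filter, and each library left out. The edgeR fit with the block was run on counts simulated for KO2 against WT from its own fitted means and dispersions. It recovered 80% of 100 genes changed 2-fold and 95% of 100 changed 4-fold, with 12 false calls. The other fits were not run on simulated counts. From each list the text names at most 4 called genes in KO2 and at most 2 in KO1, by smallest p, with all ligand genes that have counts, and the 10 genes most like the members' mean profile. Genes outside this rule (PTPRC, CD68 and the epithelial markers) and members of other lists named for background were chosen after their values were seen. Some genes that the lists and the naming rule take are not reported here, and they were left out of the list counts.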

Additional observations from a re-analysis of the deposited data

Results flagged for a closer look

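In KO1 against WT, 3 members pointed one way in the HCT pair of libraries and the other way in the HCT116 pair. For OAS3 the log2 ratio of CPM was -0.3663 in the HCT pair and 0.116 in the HCT116 pair. EIF2AK2 gave -0.0503 and 0.2213, and ADAR gave -0.0896 and 0.0989. Each pair is a single library against a single library, so the difference between the prefixes was not tested.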

How the results depend on the processing

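Without the replicate block edgeR called 0 genes in each guide comparison (173 for KO1 and 309 for KO2 against WT, and 513 between the guides, at an unadjusted p under 0.05), where 130, 585 and 1220 were called with it. The members called in KO2 against WT and against KO1 went from 4 to 0 in both. In KO1, DESeq2 called 205 genes and no filter gave 316, each with 1 member called in place of 0; in KO2 no filter gave 949. Leaving out 1 library gave 69 to 901 genes in KO1, 317 to 2170 in KO2, 391 to 3202 between the guides and 6481 to 8754 between prefixes. Members called then ran from 0 to 1, 3 to 4 and 1 to 6 in the 3 guide comparisons. The lone library left in a group is assumed to vary like the others.

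For single members in KO2 against WT and KO2 against KO1, 0 of the log2 fold changes turned sign. In KO1 against WT, OAS3 turned to 0.29 without the HCT library of KO1 and EIF2AK2 to -0.15 without the HCT116 library of KO1. ADAR turned to -0.0096 with RLE factors or DESeq2, and to -0.0087, -0.13 and -0.015 without the HCT116 library of WT, KO1 or KO2. Between prefixes, OAS1 turned to 0.035 with DESeq2 and to 0.46 and 0.47 when the HCT or the HCT116 library of KO2 was left out, and OAS3 to 0.17 and 0.20. With 1 library left out, the log2 fold change in KO1 against WT ran from -0.57 to 0.29 for OAS3, from -0.15 to 0.31 for EIF2AK2 and from -0.13 to 0.13 for ADAR, and between prefixes from -0.28 to 0.47 for OAS1 and from -0.44 to 0.20 for OAS3. The cause was not tested. Low depth limits OAS1 in WT and OAS2 in all groups.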
